A study of Rattus norvegicus with 145 samples.

Results

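The comparison described here is between striatum of 10-month-old heterozygous Q130 knock-in (KI) Long Evans rats and striatum of wild-type (WT) rats of the same age. The libraries were those whose labels gave striatum, 10 months and either genotype. They numbered 20 of the 145 in the series, 10 KI and 10 WT, with 5 females and 5 males in each genotype. Each library came from a separate animal, and the cortex of the same 20 animals was sequenced too. The KI rats carry an expanded glutamine-encoding repeat in 1 copy of the huntingtin gene, so their cells keep a wild-type copy, and the labels name no other allele and no treatment in either genotype. Other ages are used below only for values set beside those of 10 months. Striatum of 2 and of 6 months came from 3 KI and 3 WT males at each age, which the submitters added from an earlier series as pipeline controls. Striatum and cerebellum of 19 months came from 10 KI and 10 WT rats, and those of 24 months from 7 KI and 4 WT rats.

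Huntington's disease is caused by expansion of a CAG repeat in the gene for huntingtin, a large scaffold protein made in nearly every cell type. The striatum is the brain region that suffers the earliest and heaviest loss in the disease. Most of its neurons are medium spiny projection neurons, which use GABA, receive glutamatergic input from cortex and dopaminergic input from midbrain, and in many rodent models lose expression of the receptors, peptides and signalling enzymes that distinguish them. The comparison asks whether such changes, or any others, can be measured in KI striatum at this age.

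Levels are given as CPM, the counts of a gene per 1000000 counts of its library, after TMM scaling for library composition, and differences as log2 of KI over WT. A call means a p under 0.05 after Benjamini-Hochberg adjustment over all genes tested. The deposited tables name genes by rat Ensembl identifier only, and 0 of 32883 identifiers could be paired with a symbol here. The genes are therefore described by identifier, and neither the huntingtin gene nor any striatal marker gene could be looked up. Whether one of the identifiers below is huntingtin is not known here.

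Library totals, in units of 1000000 counts, were 27.6 to 31.8 in KI and 27.1 to 30.6 in WT. The labelled region could be checked without gene names. Genes enriched in striatum over the other regions averaged a log2 CPM of 1.49 to 2.46 in the striatum libraries and of -0.743 to -0.435 in the cortex libraries of the same animals, with no overlap. The labelled sex could not be checked independently. Some libraries stood apart within their genotype. The male WT libraries M1 and M2 shared 27 genes at 4 times or more the level of any other of the 20 libraries, and the male KI libraries M4 and M5 shared 6 such genes. These genes are described below, and the main results that rest on those libraries are given with and without them.

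A single gene of 15284 tested was called at 10 months, ENSRNOG00000011073, and it was lower in KI striatum, at 72.6% of the WT mean. That is 0.00654% of the genes tested. Its level was 80.3 CPM in the lowest, 100 CPM in the median and 105 CPM in the highest KI animal, against 107, 133 and 151 CPM in the lowest, median and highest WT animal. All 10 KI animals lay below all 10 WT animals, and it was the single gene of the 15284 whose genotypes did not overlap. The means were 96.1 ± 9.46 CPM in KI and 132 ± 11.9 CPM in WT (SD, n = 10 each). The log2 difference was -0.46 ± 0.063 (SE), with a 95% interval of -0.59 to -0.33 and an adjusted p of 0.00655 in edgeR's two-sided quasi-likelihood test. On the TPM scale, which also adjusts for transcript length, it stood at 12.3 ± 1.86 in KI and 16.9 ± 1.87 in WT. In whole tissue a lower level can come, among other sources, from fewer cells that express a gene or from less RNA in each. These cannot be told apart here. Whether this gene is huntingtin itself, which carries the expanded repeat in KI rats, is not known here either.

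The call did not rest on a single animal or on the libraries that stood apart. Leaving out each of the 20 libraries in turn kept ENSRNOG00000011073 past the threshold every time, with a log2 difference of -0.49 to -0.43 and an adjusted p of 0.00116 to 0.0227 in edgeR. Without WT M1 and WT M2 it was still the 1 gene called, of 15359 tested (0.00651%). Limma-trend on the TPM values gave the same direction but did not pass, with an adjusted p of 0.783 at a pseudocount of 0.1 and of 0.771 at a pseudocount of 1.

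Both sexes showed the lower level of ENSRNOG00000011073. The levels of each sex were scaled by TMM within that sex, so they differ slightly from those of the 20 libraries above. KI females ranged from 78.4 to 105 CPM against 125 to 152 CPM in WT females, and KI males from 83.3 to 106 CPM against 107 to 141 CPM in WT males. The genotypes did not overlap in either sex. With 5 animals against 5, neither sex alone passed in edgeR (log2 difference -0.55 in females, adjusted p 0.804, and -0.38 in males, adjusted p 1). The genotype difference did not differ detectably between the sexes, at 0.15 log2 units with a 95% interval of -0.11 to 0.41.

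**Figure D1:**
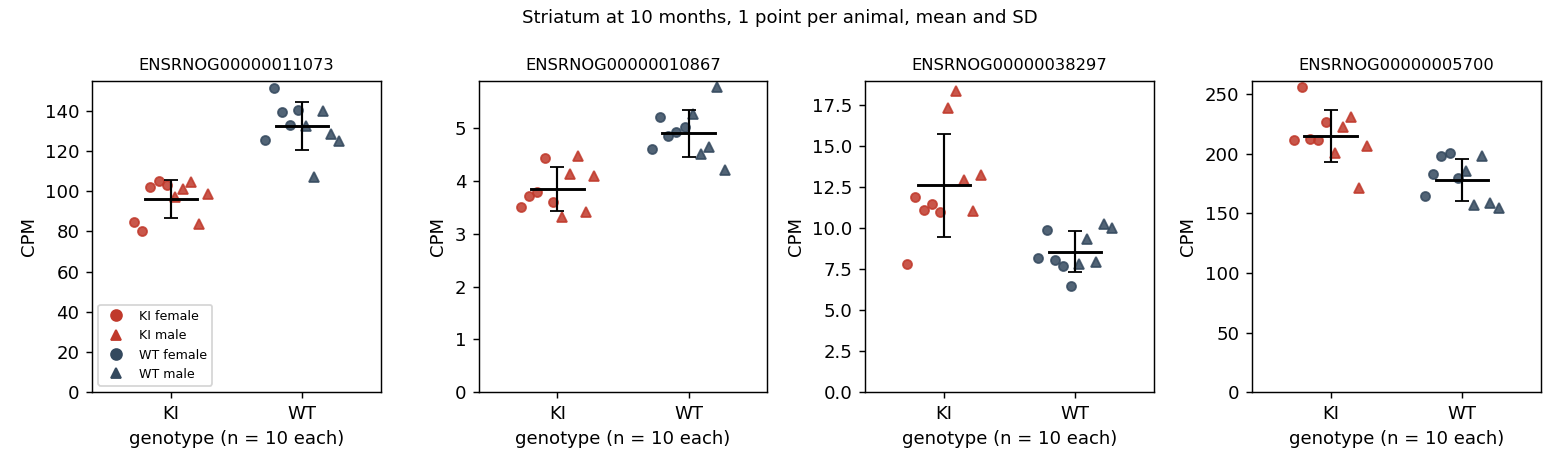
CPM (TMM-scaled) of the 4 named genes in striatum at 10 months, with 1 point per animal, KI on the left and WT on the right, circles for females and triangles for males; bars are the mean and SD of 10 animals. ENSRNOG00000011073 separates the genotypes completely, from 80.3 to 105 CPM in KI and from 107 to 151 CPM in WT, while the other 3 genes overlap.

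In the cortex of the same animals, ENSRNOG00000011073 had 86.9, 134 and 137 CPM in the lowest, median and highest KI animal, against 91.8, 155 and 180 CPM in WT. The genotypes overlapped there, although all 10 KI values lay below the WT median. The log2 difference in cortex was -0.29 ± 0.11 (SE), with an unadjusted p of 0.0181 and an adjusted p of 0.647 in edgeR. Set against cortex within animals, the KI difference in striatum was lower by 0.18 log2 units (95% interval -0.45 to 0.092, adjusted p 0.736 in edgeR), so a difference between the regions was not shown.

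The same gene was lower in the KI mean of every other striatal age. At 2 months KI animals had 92.9 to 103 CPM against 123 to 131 CPM in WT, without overlap, and it ranked first of 15407 genes by p without passing (log2 -0.38, adjusted p 0.238 in edgeR). At 6 months the ranges overlapped, with 90.5 to 97.9 CPM in KI animals against 95.5 to 125 CPM in WT animals (log2 -0.19, adjusted p 0.652). At 19 months KI had 61.2 to 111 CPM against 109 to 149 CPM in WT, and the gene fell by 0.54 on the log2 scale (adjusted p 0.0247). At 24 months KI had 59.6 to 100 CPM against 110 to 153 CPM in WT, without overlap, and it did not pass (7 animals against 4, log2 -0.69, adjusted p 0.998). The mean KI level was 76.6% of WT at 2 months, 87.9% at 6 months, 72.6% at 10 months, 68.5% at 19 months and 61.9% at 24 months. The step between 10 and 19 months was within error, at -0.085 log2 units (95% interval -0.30 to 0.13, adjusted p 1 in edgeR). In cerebellum, sampled from other animals, the gene was at 70.3% of WT at 19 months and 72.1% at 24 months, and it fell at both ages (adjusted p 0.00103 and 0.000696 in edgeR). There it was 1 of 352 genes called of 15101 at 19 months (2.33%) and 1 of 334 called of 15381 at 24 months (2.17%).

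**Figure D2:**
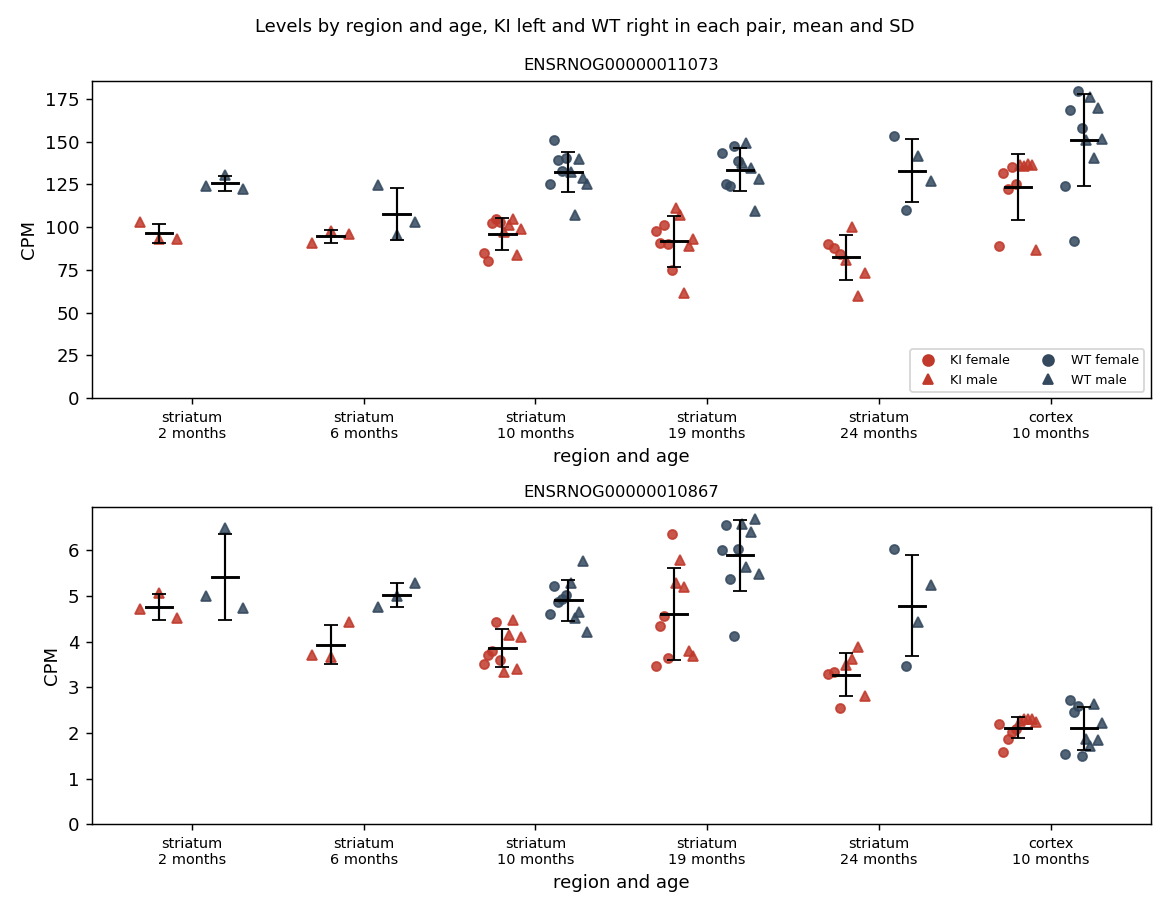
CPM of ENSRNOG00000011073 (top) and ENSRNOG00000010867 (bottom) in striatum of 5 ages and in cortex of 10 months, with 1 point per animal, KI left and WT right in each pair, and the mean and SD as bars. The KI mean of ENSRNOG00000011073 lies below the WT mean in each pair, at 72.6% of WT in striatum of 10 months, and that of ENSRNOG00000010867 lies below WT in striatum but not in cortex.

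The identifiers next in order of p did not pass in edgeR's fit of the 20 libraries, though some passed in other fits, as given beside each. ENSRNOG00000010867 had 3.32, 3.76 and 4.48 CPM in the lowest, median and highest KI animal, against 4.21, 4.90 and 5.77 CPM in WT. Of the 10 KI animals, 8 lay below the lowest WT animal. Its log2 difference was -0.35 ± 0.076 (SE), with an adjusted p of 0.844 in edgeR and of 0.0397 in DESeq2. In the cortex of the same animals it averaged 2.12 ± 0.24 CPM in KI and 2.10 ± 0.47 CPM in WT, with overlapping ranges. Its KI mean was 78.5% of WT in striatum of 10 months, against 88.0% at 2 months, 78.4% at 6 months, 78.2% at 19 months and 68.5% at 24 months, and edgeR's fits of each age alone called it at none of these 5 ages. In cerebellum ENSRNOG00000010867 was among the genes called. At 19 months KI cerebellum averaged 1.02 ± 0.22 CPM, against 2.46 ± 0.46 CPM in WT (log2 -1.27, adjusted p 1.19e-05 in edgeR). At 24 months the KI mean was 1.06 ± 0.31 CPM, against 2.14 ± 0.70 CPM in WT (log2 -0.97, adjusted p 0.0400 in edgeR). The genotypes did not overlap at either cerebellar age.

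On the other side, ENSRNOG00000038297 had 7.81, 11.7 and 18.4 CPM in the lowest, median and highest KI animal, against 6.5, 8.14 and 10.3 CPM in WT. Of the 10 KI animals, 9 lay above the highest WT animal. Its KI mean was 147% of WT (log2 0.54 ± 0.11 SE, adjusted p 0.420 in edgeR, and 0.0115 in DESeq2). The edgeR fit that pools all striatal ages, described below, called it too, with an adjusted p of 0.0365. In cortex it had 17.4, 21.8 and 29.9 CPM in KI, against 16.8, 18.1 and 21.0 CPM in WT (log2 0.27, unadjusted p 0.000267, adjusted p 0.477 in edgeR). At other striatal ages its direction was mixed, with log2 differences of -0.28 at 2 months, 0.17 at 6 months, 0.18 at 19 months and -0.19 at 24 months, none of them called.

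ENSRNOG00000005700, a more abundant gene, had 171, 212 and 256 CPM in the lowest, median and highest KI animal, against 154, 182 and 200 CPM in WT. Again 9 of 10 KI animals lay above the highest WT animal. The log2 difference was 0.27 ± 0.062 (SE) with an adjusted p of 0.844 in edgeR. In cortex all 10 KI animals lay above the WT median of 181 CPM, with a log2 difference of 0.10 (unadjusted p 0.00693, adjusted p 0.624 in edgeR). In striatum of other ages the log2 difference was 0.17 at 2 months, 0.11 at 6 months, 0.08 at 19 months and 0.03 at 24 months. DESeq2 called 3 genes at 10 months, and these were ENSRNOG00000011073, ENSRNOG00000010867 and ENSRNOG00000038297.

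The size of the differences over all genes was small. Of the 15284 genes, 884 (5.78%) had an unadjusted p under 0.05, of which 475 (3.11%) were lower and 409 (2.68%) higher in KI. The median absolute log2 difference was 0.063 and its 95th percentile 0.38, beside a median SE of 0.092. The 95% interval of the log2 difference lay within 0.5 of 0 in either direction for 12124 genes (79.3%), and within 1 of 0 for 14582 genes (95.4%). Among the 13153 genes with a mean log2 CPM of at least 1, the interval lay within 0.5 for 11578 (88.0%) and within 1 for 12839 (97.6%). For most expressed genes, a genotype difference of 2-fold or more thus lay outside the interval.

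The 108 genes whose fitted difference exceeded 2-fold mostly followed a few libraries. They were 94 genes with lower and 14 with higher fitted levels in KI, and 87 of them had an unadjusted p under 0.05 (78 lower, 9 higher). In 73 of those 78 the highest of the 20 libraries was WT M1 or WT M2, and in 6 of those 9 it was KI M4 or KI M5. With these 4 libraries left out, 9 of the 87 still differed more than 2-fold.

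The 27 genes high in WT M1 and WT M2 were chosen by that pattern, so their difference between genotypes follows from the choice. Their summed level was 7074 CPM in WT M1 and 20808 CPM in WT M2, against 74.5 to 221 CPM (median 101) in the other 18 striatum libraries, KI and WT alike. The most abundant of them stood at 4892 and 15003 CPM in those 2 libraries, against 4.02 to 76.8 CPM in the others. In the cortex of the same 2 animals the summed level was 278 and 111 CPM, against 59.2 to 246 CPM in cortex of the other 18 animals. The high level was thus seen in the striatum libraries of these animals and not at that size in their cortex. Of the 27 genes, 12 met the definition of cerebellum-enriched genes, which rests on 4 WT rats of 24 months, against 212 of the 15284 genes tested. Summed levels varied widely between cerebellum libraries. At 19 months they ran from 113 to 2784 CPM in KI and from 99.8 to 3036 CPM in WT. At 24 months they ran from 78.1 to 2339 CPM in KI and from 1296 to 2344 CPM in WT. All were below the striatum libraries WT M1 and WT M2, and the lowest lay within the range of the other 18 striatum libraries. Striatum libraries of the other ages stayed at or under 404 CPM.

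The 6 genes high in KI M4 and KI M5 behaved otherwise across regions. Their summed level was 1828 CPM in KI M4 and 3011 CPM in KI M5, against 80.9 to 325 CPM in the other 18 striatum libraries. In the cortex of the same 2 animals it was 1231 and 1895 CPM, against 88.5 to 349 CPM in the other 18 cortex libraries, so both regions of these animals were high. A further 29 genes were high in WT M1 alone, at a summed 5681 CPM against 259 to 526 CPM in the other 19 striatum libraries. The cortex of that animal was high too, at 1607 CPM against 187 to 261 CPM. No gene was shared between the 27 and the 29. The same 29 genes reached 18579 CPM in 1 KI striatum library of 24 months.

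**Figure D3:**
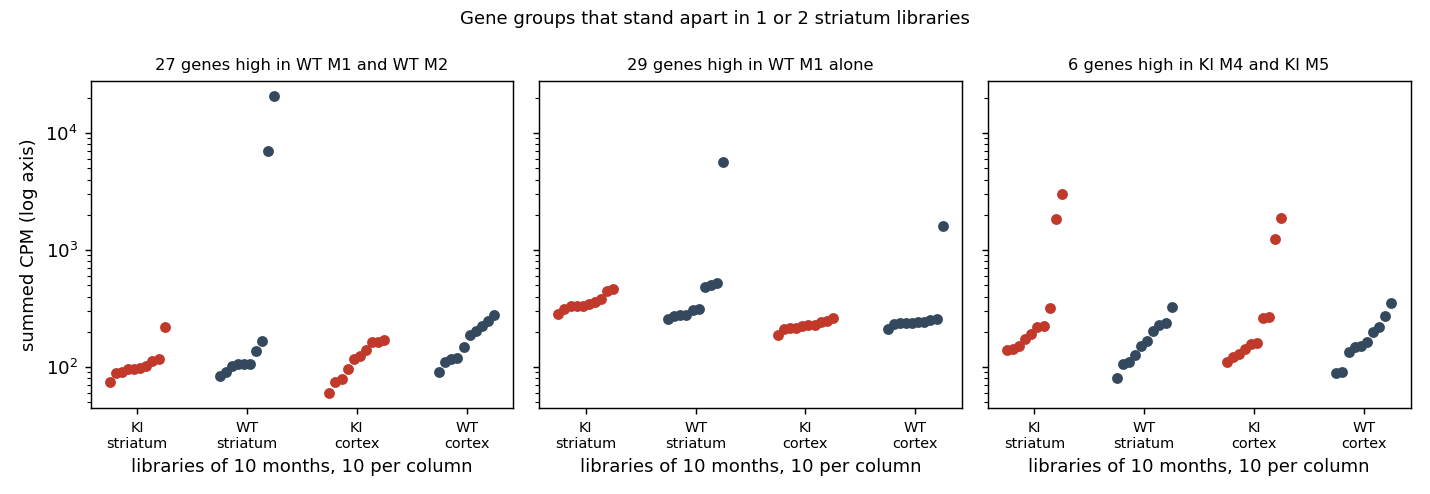
Summed CPM (log axis) of the 27 genes high in WT M1 and WT M2, the 29 genes high in WT M1 alone and the 6 genes high in KI M4 and KI M5, with 1 point per library of 10 months, striatum then cortex, KI left of WT in each region. The 27 genes reach 7074 and 20808 CPM in 2 WT striatum libraries with no such points in cortex, while the other groups are high in striatum and cortex of the same animals.

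These libraries set the outcome of a fit that pools all 63 striatum libraries of the 5 ages. With the spread shared over ages, edgeR called 81 of 16474 genes (0.492%) for the genotype difference at 10 months, 72 lower (0.437%) and 9 higher (0.0546%) in KI. The lower genes had a median log2 difference of -2.42. In 69 of the 72, WT M1 and WT M2 were the highest 2 of the 20 libraries of 10 months, and in 8 of the 9 higher genes KI M4 and KI M5 were. The called genes included 24 of the 27 and all 6 of the 6 genes described above, as well as 30 cerebellum-enriched, 2 striatum-enriched and 0 cortex-enriched genes. How many genes of these groups the pooled fit tested was not counted. The fit of 10 months alone tested 212 cerebellum-enriched, 289 striatum-enriched and 133 cortex-enriched genes among its 15284. Without WT M1 and WT M2 the pooled fit called 1 gene (0.00608%), ENSRNOG00000011073. It called 41 genes (0.249%) without WT M1 alone, 13 (0.0790%) without WT M2 alone, 29 (0.176%) without KI M4 and KI M5, and 1 (0.00609%) without all 4. Of the 81 genes, 54 were also tested in the fit of 10 months alone, where 52 had an unadjusted p under 0.05 and 1 was called.

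**Figure D4:**
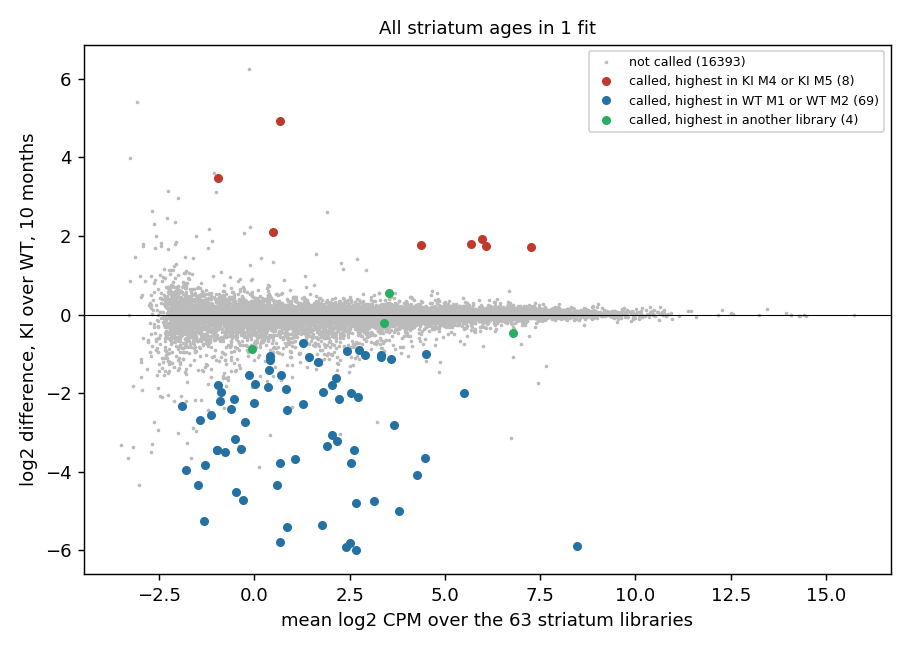
Log2 difference of KI over WT at 10 months against the mean log2 CPM over the 63 striatum libraries, for every gene of the pooled fit, with called genes coloured by the library of 10 months in which they were highest. Most called genes below 0 are highest in WT M1 or WT M2 (69 of 72), and most above 0 in KI M4 or KI M5 (8 of 9).

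Genes enriched in 1 brain region gave the only grouping by tissue that the identifiers allowed. Enriched genes had a mean CPM at least 4 times that of both other regions in WT libraries of 24 months, which the 10-month comparison did not use. Of 289 striatum-enriched genes tested, 182 (63%) were lower and 107 higher in KI, against 47.8% lower over all genes, with a median log2 difference of -0.071 beside 0.0049 over all genes. None was called (0), and 27 were lower and 8 higher at an unadjusted p under 0.05 in edgeR, together 12.1% against 5.78% of all genes. Of 133 cortex-enriched genes, 43 (32.3%) were lower and 90 higher, with a median of 0.092 and 0 called. At that unadjusted p 1 was lower and 9 higher, together 7.52%. Of 212 cerebellum-enriched genes, 128 (60.4%) were lower and 84 higher, with a median of -0.033 and 0 called. At that p 20 were lower and 4 higher, together 11.3%, close to the share of the striatum-enriched genes. Without WT M1 and WT M2 the striatum-enriched median was -0.071, with 57.4% of 296 genes lower against 50.4% of all genes. In that fit 19 striatum-enriched genes were lower and 5 higher at an unadjusted p under 0.05 (8.11%, against 4.59% of all genes). The cortex-enriched median was 0.068, and the cerebellum-enriched genes at that p were 4 lower and 4 higher (3.69%). The groups leaned the same way in cortex of the same animals. There 96 of 158 striatum-enriched genes were lower (60.8%, against 52.9% of all genes), with a median of -0.046. At an unadjusted p under 0.05 in edgeR, 10 were lower and 3 higher (8.23%, against 6.66% of all genes). Of 255 cortex-enriched genes 144 were higher, with a median of 0.041, and of 225 cerebellum-enriched genes 131 were lower, with a median of -0.024.

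The level of these groups varied between libraries of 1 genotype. The mean log2 CPM of striatum-enriched genes was 1.52, 1.99 and 2.39 in the lowest, median and highest KI library, against 1.73, 2.29 and 2.48 in WT. That of cortex-enriched genes was 1.32, 1.63 and 1.86 in KI, against 1.21, 1.46 and 1.79 in WT. Both ranges overlapped between the genotypes. When the cortex-enriched level of each library was added to the fit as a covariate, the striatum-enriched median turned from negative to 0.029, and the cortex-enriched median was 0.021. The direction of the striatum-enriched genes at 10 months therefore depended on whether that level was in the fit, and what sets the level was not tested. ENSRNOG00000011073 was still called with this covariate. In females alone the striatum-enriched median was -0.15 and the cortex-enriched median 0.039, and in males alone they were -0.094 and 0.081. At an unadjusted p under 0.05 in edgeR, 32 striatum-enriched genes were lower and 6 higher in KI females (13.3%, against 5.76% of all genes), but 6 were lower and 9 higher in KI males (5.10%, against 3.70%). The excess of lower genes at that p was thus seen in females and not in males. The male counts included WT M1 and WT M2, and this group was not counted in males without them. By sign alone, more of the striatum-enriched genes were lower in both sexes. In females 183 of 285 were lower (64.2%, against 51.6% of all genes), and in males 194 of 294 (66.0%, against 48.0%). The difference between the sexes was not tested for the group.

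**Figure D5:**
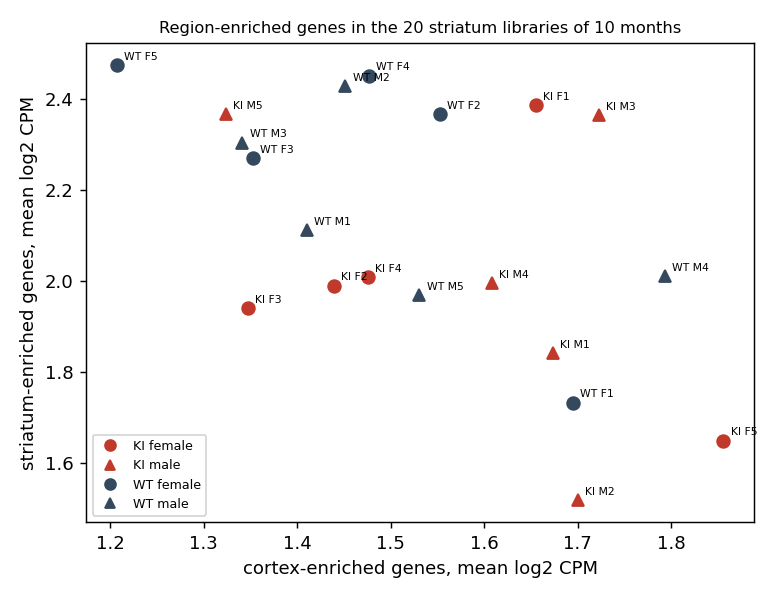
Mean log2 CPM of striatum-enriched genes (vertical) against that of cortex-enriched genes (horizontal) in each of the 20 striatum libraries of 10 months, KI in red and WT in dark blue, circles for females and triangles for males. The genotypes overlap on both axes, with KI from 1.52 to 2.39 and WT from 1.73 to 2.48 on the vertical axis.

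With edgeR, no gene was called in either sex alone, in cortex, or for a difference between sexes, regions or the ages 19 and 10 months. Females alone gave 0 of 15284 genes (0%), with 880 (5.76%) at an unadjusted p under 0.05, and males alone 0 of 15370 (0%), with 569 (3.70%). Males without WT M1 and WT M2 gave 0 of 15588 (0%), with 274 (1.76%). The genotype difference was called as differing between the sexes for 0 of 15284 genes (0%; 870, or 5.69%, at an unadjusted p under 0.05). In cortex of the same animals 0 of 15211 genes (0%) were called, with 1013 (6.66%) at an unadjusted p under 0.05. The KI difference in striatum was called as differing from that in cortex for 0 of 15840 genes (0%; 1085, or 6.85%, at an unadjusted p under 0.05). Between 19 and 10 months it was called as differing for 0 of 15684 genes (0%; 377, or 2.40%, at an unadjusted p under 0.05). Fits of the other striatal ages called 0 of 15407 genes at 2 months (0%; 958, or 6.22%, at an unadjusted p under 0.05), 2 of 15377 at 6 months (0.0130%), 3 of 15271 at 19 months (0.0196%) and 0 of 15645 at 24 months (0%; 468, or 2.99%, at an unadjusted p under 0.05). Of these, ENSRNOG00000011073 was called at 19 months.

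The genes of lowest p at 10 months were followed into striatum of other animals and into cortex of the same animals. At an unadjusted p under 0.01 stood 156 genes (1.02%), 85 lower and 71 higher in KI. At 19 months 62 of the 84 lower genes tested (73.8%) were again lower, against 46.5% of all genes, and 61 of 71 higher genes (85.9%) again higher, against 53.5%. At 24 months these were 57 of 84 (67.9% against 47%) and 45 of 71 (63.4% against 52.7%), and at 2 months 54 of 84 (64.3% against 51.0%) and 39 of 71 (54.9% against 49.0%). At 6 months they were 38 of 83 (45.8% against 53.3%) and 16 of 71 (22.5% against 46.7%), so most of the higher genes had a fitted difference below 0 there. In cortex of the same animals they were 36 of 75 (48.0% against 53.1%) and 32 of 70 (45.7% against 46.9%), near or under the shares of all genes. The differences at 19 months were small, with a median log2 of -0.047 in the lower and 0.055 in the higher genes. Genes were also chosen without WT M1 and WT M2. At 19 months 33 of 47 lower genes (70.2% against 46.5%) and 47 of 56 higher genes (83.9% against 53.5%) kept their sign. Of the lower genes, 25 of 49 (51.0% against 47%, median log2 -0.0022) did so at 24 months, close to the share of all genes. Of the higher genes, 39 of 56 (69.6% against 52.7%) did so at that age. At 2 months 27 of 50 lower genes (54.0% against 51.0%) and 27 of 56 higher genes (48.2% against 49.0%) did so, close to the shares of all genes. At 6 months 15 of 48 lower genes (31.25% against 53.3%) and 12 of 56 higher genes (21.4% against 46.7%) did. In cortex of 10 months 25 of 48 lower genes (52.1% against 53.1%) and 15 of 56 higher genes (26.8% against 46.9%) did.

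Transcript length moved with these shares. Across genes, the Spearman correlation of the log2 difference with the gene length implied by the ratio of counts to TPM was -0.14 at 10 months (15284 genes; -0.22 without WT M1 and WT M2), -0.22 at 19 months, -0.10 at 24 months, -0.041 at 2 months and 0.33 at 6 months. In cortex of 10 months the correlation was 0.25 (15211 genes). The striatal ages with the same sign as 10 months were those with the higher shares, and 6 months, with the opposite sign, had the lowest. Genes of 1 library are not independent, and the part of length in the shared signs was not tested. ENSRNOG00000011073 was called with the length slope of each library as a covariate too.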

How the data were processed

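The authors deposited estimated counts (8.12% of cells not whole, rounded here) for 32883 Ensembl identifiers, and a second table that the authors name FPKM but that sums to 1000000 per library, so its deposited values were treated as TPM. Which aligner, counter and annotation were used is not given in the sources used here. Every column was mapped to a sample by animal and region. Each region and age was fitted with edgeR 4.0.16 (TMM, filterByExpr by genotype, robust quasi-likelihood F test) in R 4.3.3, with sex as a covariate. Within-animal and between-age differences were interaction terms. DESeq2 1.42.0 and limma 3.58.1 were alternatives. Summed CPM of gene groups used TMM factors over all libraries.

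The members and lists were chosen with earlier results of these data known. Named genes were every called gene and the first 2 identifiers by p in each direction whose mean log2 CPM reached 1 and whose sign was shared by both sexes. The design assumed symbols: lists of named genes and markers could not be matched and were not tested. The groups of genes high in single libraries were defined after the data were seen. The lowest chi-square per degree of freedom over the 190 pairs of libraries was 6.40, so no library was a repeat of another.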

Additional observations from a re-analysis of the deposited data

Results flagged for a closer look

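Of 22 groups of 10 libraries checked for 1 library far from the rest, 1 was flagged, and chance alone flags about 1 group in 20. KI M4 had a summed level of 217 CPM for the 27 genes that were high in WT M1 and WT M2, when scaled over the 20 striatum libraries of 10 months. Its gap to the next KI library was 0.711 of the whole KI range, above Dixon's 95% critical value. Of the 27 genes, 16 had their highest level outside WT M1 and WT M2 in KI M4. KI M4 is also 1 of the 2 libraries high for the separate group of 6 genes.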

How the results depend on the processing

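The count of 1 called gene was the same with RLE size factors, no count filter, a strict filter of 1 CPM, no sex term, the cortex score or length slope as a covariate, the library of outlying correlation left out, and each library left out in turn (1 to 1). It was 3 with DESeq2, 81 with all striatum ages in 1 fit, 0 with limma-trend at either pseudocount, and 0 in females and in males alone. With the replicate block it was 0 (ENSRNOG00000011073 adjusted p 0.189). The labels name no pairs of animals, and several animals carry another replicate number in cortex than in striatum. Correlations of same-numbered KI and WT libraries ran between -0.322 and 0.510, with 3 of 10 pairs over 0.1. Without values for differently numbered pairs beside them, they cannot decide whether the numbers pair animals. Chosen after seeing the data, the pooled fit called 29 genes without KI M4 and KI M5 and 1 without WT M1 and WT M2. The striatum-enriched median reversed to 0.029 with the cortex score as a covariate, and the cortex-enriched and cerebellum-enriched medians kept their sign under every alternative run for them. ENSRNOG00000011073 had a negative log2 difference in all 14 of these other settings and passed in 9. The causes of these changes were not tested. The 95% intervals lay within 1 log2 unit of 0 for 95.4% of all genes and 97.6% of those with a mean log2 CPM of at least 1.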
